A study of Rattus norvegicus with 8 samples.

Results

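The aminoacyl-tRNA synthetase genes were taken as the rows whose symbol is a 1-letter amino acid code followed by ars, with or without a final 1 or 2, or is Eprs, Farsa, Farsb or Fars2. The rule found 37 of the 32883 rows of the deposited table. By the known place of the proteins, 18 genes encode enzymes of the cytosol, 17 encode enzymes of mitochondria, and 2 (Gars and Kars) encode both forms of their enzyme. Transcript levels came from RNA sequencing of oligodendrocyte precursor cells (OPCs) cultured from rats. OPCs are glia that divide and can mature into oligodendrocytes, the cells that make myelin, and the study compared 4 libraries labelled male with 4 labelled female. All 8 were of Sprague Dawley rats aged 1 to 2 days, from cerebral cortex, and no allele or treatment distinguishes the groups. Mixed glia were kept in DMEM with 20% fetal bovine serum, and the cells that did not adhere were then grown for 4 to 5 days in Neurobasal medium with glutamine, antibiotics, 2% B27, PDGF at 10 ng/ml and FGF at 10 ng/ml. PDGF and FGF are growth factors that keep OPCs dividing. The labels do not say whether the libraries of a sex came from separate litters, animals or cultures, so a p-value here sets a difference against the spread of these libraries, part or all of which may be technical. Levels are FPKM, fragments scaled to the length of the transcript and the size of the library, a scale on which genes of different length can be set side by side. Series of 4 values are in the order of the libraries, 1 to 4.

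Aminoacyl-tRNA synthetases join each amino acid to its tRNA, the step that fixes the meaning of the genetic code. Cytosolic and mitochondrial protein synthesis use separate sets of these enzymes, nearly all encoded by separate nuclear genes, and the mitochondrial set serves the few proteins of the mitochondrial genome. When uncharged tRNAs build up, the kinase encoded by Eif2ak4 (GCN2) slows translation and raises the transcription factor Atf4, which in many cells turns on genes of cytosolic synthetases, amino acid transporters and serine synthesis. Inherited defects of several synthetases, among them RARS1, EPRS1, EARS2 and AARS2 in people, cause diseases of the white matter, the tissue that oligodendrocytes myelinate.

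The composite element bound by Atf4 with partners of the C/EBP family reads TGATGCAA, with any base allowed at its sixth letter in the search. It was searched on both strands of the RefSeq promoter windows of assembly GRCr8, which run from 250 bases before a gene's start to 50 after it. Of the 37 genes, 36 matched the RefSeq gene table by symbol or older name and 33 had a window. Among these, 7 (21.2%) held the element, against 3.98% of all 33469 windows. All 7 were cytosolic genes (Aars, Cars, Iars, Mars, Nars, Tars and Yars), out of 17 windows of cytosolic and dual genes, and 0 of 16 mitochondrial genes held it. Each of the 7 carried the same word, TGATGCAA, which 0.795% of all windows held. Gars and Rars had no window and could not be searched, so Kars was the only dual gene with one. No other motif was searched. Counted along the gene from its annotated start, the word spanned -27 to -20 in Tars, -24 to -17 in Iars and -17 to -10 in Mars, upstream. Downstream of the start it spanned 17 to 24 in Cars and 38 to 45 in Yars. TGATGCAA reads on the strand of the gene in Yars and on the opposite strand in Tars, Iars, Mars and Cars. The stretches around the word in 5 of the genes are shown to let the shared letters be compared, each on the strand that holds the word, with the element in capitals. The Yars stretch ends where its window ends.
Yars, chr5:146820190-146820212, plus strand: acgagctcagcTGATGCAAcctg
Cars, chr1:208225334-208225363, plus strand: tttccagaatcTGATGCAAccgcggcgccg
Iars, chr17:15193658-15193687, plus strand: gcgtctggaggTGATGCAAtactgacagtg
Mars, chr7:65023752-65023781, plus strand: ggagcccacgcTGATGCAAccggaacgggc
Tars, chr2:62114811-62114840, plus strand: agctaaccagcTGATGCAAcgggacgccag
A match is a description of the sequence, not evidence that a factor binds there.

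The cultures carried the markers of the labelled cell type. Summed over 7 OPC markers (Pdgfra, Cspg4, Olig1, Olig2, Sox10, Ptprz1 and Gpr17), levels were 2018 to 2134 FPKM in male and 2429.98 to 2683 FPKM in female libraries, and 3 of the 7 (Gpr17, Pdgfra and Sox10) were called, each higher in female cultures (limma-trend). Of 8 markers of differentiating oligodendrocytes 3 (Bcas1, Cnp and Myrf) were called too, in the same direction, with sums of 662 to 809 against 921 to 1099 FPKM. All 14 tested markers of microglia and macrophages lay towards female cultures, and 11 of them were called (limma-trend). The list summed to 47.1 to 64.7 FPKM in male and 179 to 225 FPKM in female libraries. Of 9 tested neuron markers 4 (Gad1, Gad2, Stmn2 and Syt1) were called, each higher in male cultures. In all 6 lay towards male and 3 (Dcx, Rbfox3 and Tubb3) towards female cultures. The list summed to 199 to 224 FPKM in male and 177 to 197 FPKM in female libraries. Over all tested genes 6.04% were called. No microglia or neuron marker with a row in the deposited data was at 0 in every library. Slc17a6 was above 0 only in male 3, at 0.0673 FPKM. Astrocyte markers summed to 135 to 153 FPKM in male and 147 to 169 FPKM in female libraries, and 0 of the 5 tested were called. Aldoc was the highest of them, at means of 88.7 FPKM in male and 102 FPKM in female libraries. Sox9 alone of the 5 did not overlap between the sexes, with higher female values. Fibroblast and vessel markers summed to at most 2.24 FPKM, with Col1a2, Dcn and Cldn5 listed at 0 throughout. The part of these cells in the synthetase values was not tested, and in bulk RNA a change in the number of cells of a type cannot be told apart from a change in the RNA of each cell. How many reads each library held is unknown. Steps between low values gave depths relative to male 1 of 0.553 to 0.768 in the other male and 0.303 to 0.981 in the female libraries.

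Most cytosolic synthetase genes were more abundant than the typical gene of these cells. Their mean levels over the 8 libraries ran from 11.4 to 135 FPKM with a median of 48.4, and the median gene of the 18 lay above 82.3% of all tested genes. Iars alone was below the middle of that order, above 46.6% of tested genes. Sars, the seryl-tRNA synthetase gene, was the highest in all 8 libraries, at 140.2, 137, 128 and 129.98 FPKM in the male libraries and 136, 137, 141 and 129 FPKM in the female libraries. Aars, which charges alanine, was next in all 8, at 102, 103, 106 and 109 FPKM in the male libraries and 87.9, 89.7, 91.8 and 84.9 FPKM in the female libraries. Its male values all lay above its female ones. Nars, the asparaginyl enzyme's gene, was the third by mean level, at 72.5, 85, 82.4 and 65.4 FPKM in the male libraries and 66.6, 74.3, 67.9 and 65.1 FPKM in the female libraries, and its groups overlapped. Below it the genes for arginine (Rars), histidine (Hars), valine (Vars), phenylalanine (Farsb) and tyrosine (Yars) lay at means of 49.1 to 61.1 FPKM, and those for glutamine (Qars), leucine (Lars), glutamate and proline (Eprs), methionine (Mars), tryptophan (Wars) and threonine (Tars) at 39.7 to 47.6 FPKM. Many neighbours in that order did not differ beyond their spread: Tars, Wars and Mars spanned 36.8 to 43.5, 36.5 to 41.8 and 36.7 to 42.3 FPKM.

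At the low end, Iars, the isoleucyl enzyme's gene, was the lowest cytosolic member in all 8 libraries, at 12.6, 11.5, 12.9 and 11 FPKM in the male libraries and 10.6, 11.1, 10.9 and 10.7 FPKM in the female libraries. Cars, which charges cysteine, stood at 18.7, 24.7, 23.5 and 21.2 FPKM in the male libraries and 18, 17.2, 18.4 and 16.2 FPKM in the female libraries. Its lowest male value, in male 1, was only just above its highest female value. Farsa encodes the catalytic subunit of the phenylalanyl enzyme and stood at 34.8, 29.2, 32.8 and 26.7 FPKM in the male libraries and 28, 35.9, 33.6 and 30.2 FPKM in the female libraries, below its partner subunit gene Farsb, which ranged from 48.1 to 51.5 FPKM. By mean level both dual genes stood above all cytosolic genes but Sars and Aars, Kars level with Sars and Gars close to Aars. Kars, which charges lysine in both compartments, stood at 136, 126, 128 and 127 FPKM in the male libraries and 137, 146, 144 and 134 FPKM in the female libraries. It lay above Sars in 4 of 4 female and 1 of 4 male libraries. Gars, the glycyl enzyme's gene, stood at 100.01, 92.8, 106 and 105 FPKM in the male libraries and 79.6, 92.2, 83.1 and 79.8 FPKM in the female libraries, and every male value was above every female one.

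**Figure D1:**
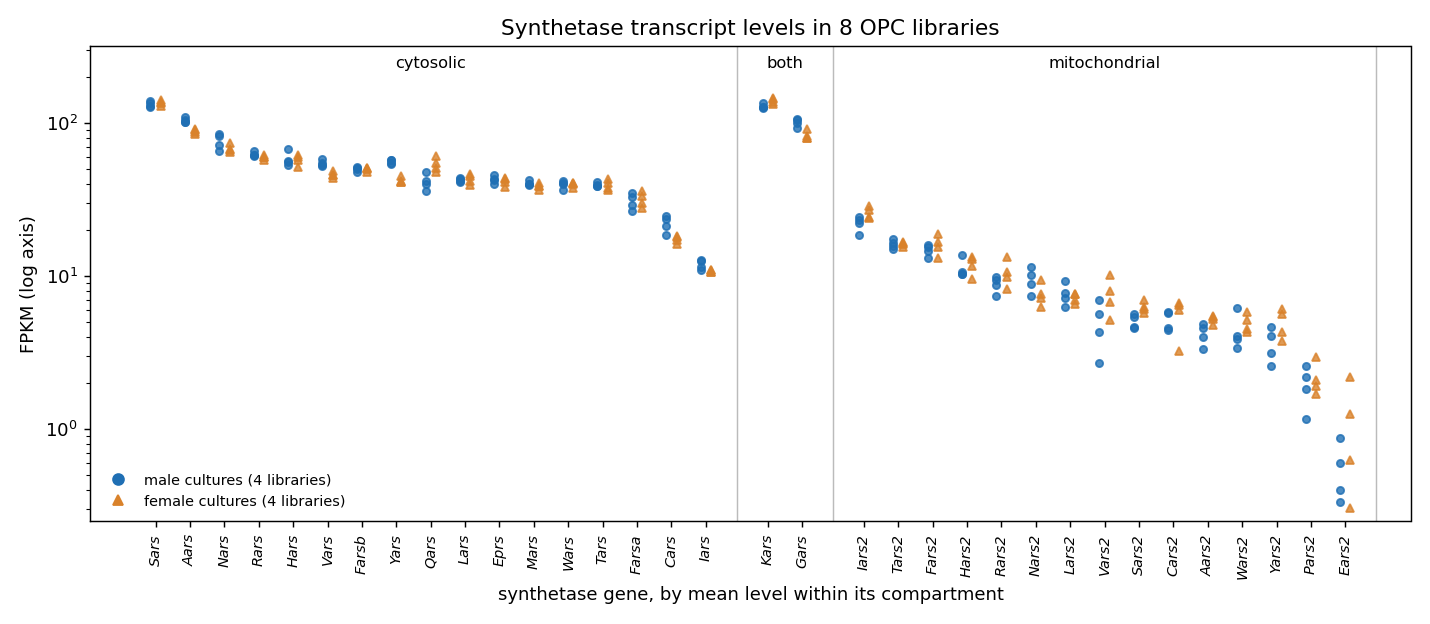
FPKM on a log axis (vertical) of 34 synthetase genes with a value above 0, ordered by mean level within cytosolic, dual and mitochondrial genes (horizontal), with 1 point per library (circles male, triangles female); Mars2, listed at 0 in all libraries, is not drawn. The cytosolic genes lie between 10.6 and 141 FPKM and the mitochondrial ones at or below 28.8 FPKM, with wider scatter at low levels.

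Mitochondrial synthetase genes were far lower. Their means ran from 0 to 24.1 FPKM with a median of 6.24, and 12 of the 17 were under 10 FPKM. Iars2, for isoleucine, was the highest in all 8 libraries, at 18.7, 22.4, 23.3 and 24.5 FPKM in the male libraries and 28.8, 27.1, 23.9 and 24.3 FPKM in the female libraries. The female values were mostly the higher ones, with overlap. Tars2, for threonine, was at 15.1, 16.4, 15.7 and 17.4 FPKM in the male libraries and 16.3, 16.7, 16.4 and 15.6 FPKM in the female libraries, a narrow range that the sexes shared. Fars2, for phenylalanine, was at 14.5, 15.6, 13.1 and 16 FPKM in the male libraries and 18.9, 13.1, 16.7 and 15.4 FPKM in the female libraries. Female 1 was the highest and the other values of the sexes were mixed. At the other end, Pars2, for proline, was at 2.57, 1.16, 1.84 and 2.2 FPKM in the male libraries and 2.97, 1.93, 2.1 and 1.69 FPKM in the female libraries. Ears2, the glutamyl enzyme's gene, was at 0.335, 0.606, 0.871 and 0.401 FPKM in the male libraries and 2.21, 0.305, 1.25 and 0.628 FPKM in the female libraries, under 1 FPKM in 6 of the 8 libraries and not tested because its mean was below 1 FPKM. Mars2, the methionyl enzyme's gene, was listed at 0 in all 8 libraries. The spread between libraries of a sex, as the SD over the mean, had a median of 5.33% in male and 5.13% in female libraries for cytosolic genes. For the 15 tested mitochondrial genes it was 15% and 14.2%.

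Setting each cytosolic gene beside the mitochondrial gene for the same amino acid gave 17 pairs, 16 of them with a ratio (Mars2 allowed none). In 15 of the 16 the cytosolic gene was the higher one in all 8 libraries. Median ratios over the libraries reached 68.1 for glutamate, where Eprs was set against the barely detected Ears2. The ratio was 19.6 to 29.4 for serine (Sars over Sars2) and 2.26 to 2.6 for threonine (Tars over Tars2), the lowest median of the 15. Phenylalanine overlapped it, at 2.09 to 3.31. Isoleucine was the exception. Iars over Iars2 was 0.673, 0.515, 0.552 and 0.447 in male 1 to male 4 and 0.368, 0.408, 0.457 and 0.439 in female 1 to female 4, so the mitochondrial gene was higher by 1.49 to 2.72 times in every library. Iars was the lowest cytosolic and Iars2 the highest mitochondrial member. For histidine the genes Hars and Hars2 stand head to head in RefSeq, with starts 144 bases apart. Whether counting used strand, and with which annotation, is not given in the sources used. Whether the levels of this pair depend on it was not tested. As deposited, Hars exceeded Hars2 by 3.85 to 6.34 times.

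The balance of the compartments was not cleanly apart between the sexes. Over the 15 pairs with both genes tested, the median log2 ratio of cytosolic to mitochondrial level, on the log2(FPKM + 1) scale, was 2.88, 2.56, 2.69 and 2.57 in male 1 to male 4 and 2.38, 2.47, 2.59 and 2.44 in female 1 to female 4. Female 3 lay above male 2 and male 4, so the groups overlapped, and the means were 2.68 ± 0.15 and 2.47 ± 0.0855 (SD, n = 4). No test was made of this score over chosen genes. With only pairs whose genes both averaged 5 FPKM or more, the difference between the means fell from 0.21 to 0.0458. Alanine was the single pair whose ratios did not overlap between the sexes, with Aars over Aars2 at 20.9, 22.5, 26.4 and 32.7 in male 1 to male 4 and 16.2, 18.8, 16.6 and 16.2 in female 1 to female 4. The tyrosine ratio, Yars over Yars2, was 17.5, 22.1, 14.1 and 11.6 in male 1 to male 4 and 6.7, 9.55, 11.9 and 7.42 in female 1 to female 4, and female 3 was above male 4.

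**Figure D2:**
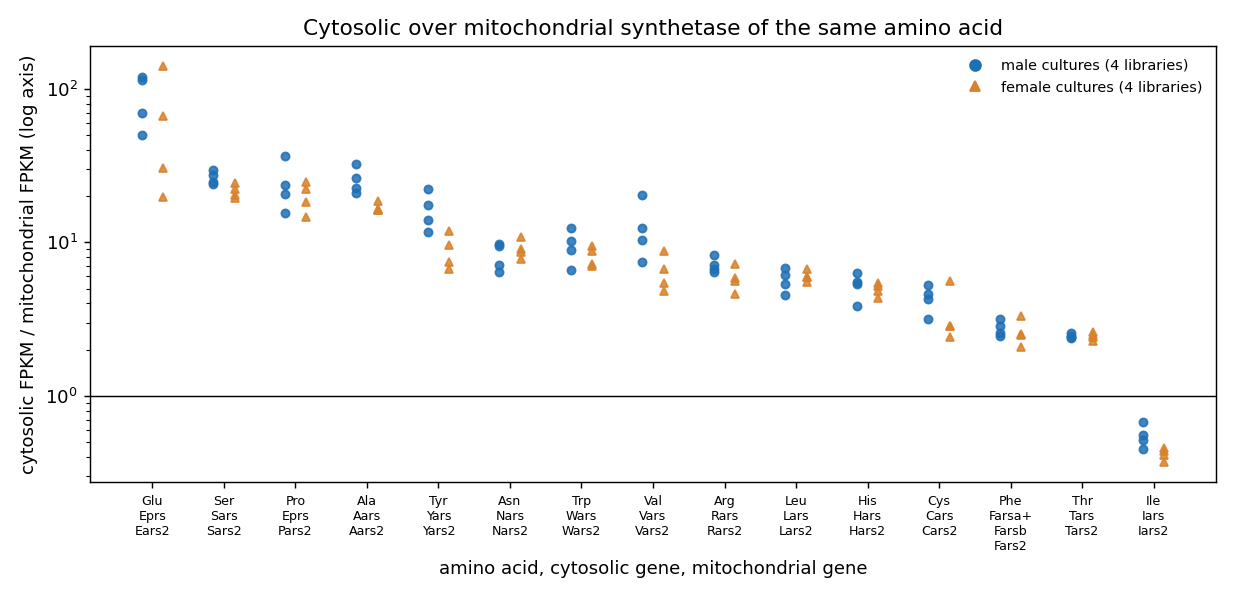
Ratio of cytosolic to mitochondrial FPKM (vertical, log axis) for 15 amino acids (horizontal), 1 point per library, circles male and triangles female; the line marks equal levels. Isoleucine alone lies under the line, at 0.368 to 0.673, and glutamate is the highest and most scattered, at 19.8 to 142.

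Of the enzymes outside mitochondria, 8 sit in the multisynthetase complex (among them those of Eprs, Iars, Kars, Lars, Mars, Qars and Rars), held by the scaffold proteins of Aimp1, Aimp2 and Eef1e1. Their genes were not at equal levels: means ran from 11.4 FPKM for Iars to 135 for Kars, with Eprs, Lars, Mars, Qars and Rars between 39.8 (Mars) and 61.1 FPKM (Rars). The scaffold genes stood at 70.9 against 68.2 FPKM for Aimp1, male against female, 44.9 against 43.5 for Aimp2 and 27.8 against 26.2 for Eef1e1. Summed over the 8 enzymes, levels were 433, 421, 429 and 425 FPKM in male 1 to male 4 and 448, 462, 444 and 442 FPKM in female 1 to female 4. Every female sum was higher as deposited, by 5.18% on average, and with quantile normalization, by 7.29%, but the groups overlapped once each library was scaled to the same median gene. Without Qars and Kars, both with higher female means, the sums overlapped as deposited too (249 to 261 against 245 to 268 FPKM). Leaving out genes with higher female means lowers the female sums more by construction. The 12 genes outside the complex went the other way, with sums of 773, 769, 774 and 755 FPKM in male 1 to male 4 and 687, 723, 716 and 682 FPKM in female 1 to female 4. All male sums were the higher ones, by 9.33%, and stayed so with median scaling and with quantile normalization. Without the 5 genes whose male values all lay above the female ones (Aars, Cars, Gars, Vars and Yars), chosen for that pattern, the sums overlapped as deposited, at 410.3 to 439 against 411 to 439 FPKM. The 17 mitochondrial genes summed to 125, 132, 129 and 139 FPKM in male 1 to male 4 and 154, 148, 139.8 and 139.5 FPKM in female 1 to female 4. Those groups were close but apart under the same scalings. Sums weigh abundant genes most, and they were not tested.

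Tested gene by gene, male and female cultures differed at 2 of the 35 tested synthetases (limma-trend on log2(FPKM + 1), Benjamini-Hochberg adjusted p under 0.05 over all 11263 tested genes), Yars and Aars, both higher in male cultures. That is 5.71% of the tested members, beside 6.04% of all tested genes (3.14% with male and 2.89% with female cultures higher). A share this near to the background is no result about the family as a whole. The sums of OPC, differentiating oligodendrocyte, microglia and neuron markers, given above, were apart between the sexes too. For 7 members the 4 values of one sex all lay above the 4 of the other (20%, beside 14.0% of all genes), 5 towards male (7.26% of all genes) and 2 towards female cultures (6.77%). Differences subtract the female from the male mean of log2(FPKM + 1) and carry their standard error after ±. The largest, that of Vars2, was not called (-0.55 ± 0.24, adjusted p = 0.22).

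Yars, which charges tyrosine, stood at 55, 57.3, 57.7 and 53.9 FPKM in the male libraries and 41.1, 41, 45 and 41.8 FPKM in the female libraries. The lowest male value was well above the highest female one, and the means were 56 ± 1.82 against 42.2 ± 1.88 FPKM (SD, n = 4), a ratio of 1.33. The difference was 0.40 ± 0.07 (limma-trend adjusted p = 0.00692), and it stayed called under all 17 alternatives run, each library left out among them (adjusted p up to 0.0343). Aars, with values given above, had means of 105 ± 3.34 against 88.6 ± 2.93 FPKM (SD, n = 4), a ratio of 1.19, and a difference of 0.24 ± 0.06 (limma-trend adjusted p = 0.0357). Its call was lost without any single library other than male 1 or female 3 (adjusted p up to 0.115), with relative depth as a covariate and with quantile normalization. The direction was kept throughout. Both genes are among the 7 with the element TGATGCAA.

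The other 3 members without overlap on the male side missed the threshold. The Gars difference was 0.27 ± 0.07 (limma-trend adjusted p = 0.0543), with means of 101 ± 6.05 against 83.7 ± 5.92 FPKM (SD, n = 4). Vars encodes the valyl enzyme, which in animal cells binds the elongation factor eEF1, and stood at 58.8, 52.2, 53.1 and 55.3 FPKM in the male libraries and 49, 43.9, 46.1 and 46 FPKM in the female libraries (0.24 ± 0.07, limma-trend adjusted p = 0.0711). Every male value exceeded every female value there. The difference of Cars was 0.31 ± 0.10 (adjusted p = 0.101). Without male 1 it was called (adjusted p = 0.0394), and Gars was called without female 2 (adjusted p = 0.0408).

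Qars, the glutaminyl enzyme's gene, went the opposite way. It stood at 47.9, 41.8, 40.2 and 36.3 FPKM in the male libraries and 51.3, 48.2, 54.8 and 60.7 FPKM in the female libraries, with means of 41.6 ± 4.81 against 53.7 ± 5.38 FPKM (SD, n = 4), a female to male ratio of 1.29. The difference of -0.37 ± 0.10 missed the threshold (limma-trend adjusted p = 0.0553) and passed it without male 1, the male library with the highest value (adjusted p = 0.0241), with quantile normalization (adjusted p = 0.0387) and with relative depth as a covariate (adjusted p = 0.0439). Sars2, for mitochondrial serine, was the other gene without overlap on the female side, at 5.66, 4.64, 4.6 and 5.4 FPKM in the male libraries and 6.12, 6.99, 5.77 and 6.3 FPKM in the female libraries. Its difference was -0.27 ± 0.13 (limma-trend adjusted p = 0.252; -0.165 with a pseudocount of 5), and male 1 and female 3 were the nearest values across the sexes.

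**Figure D3:**
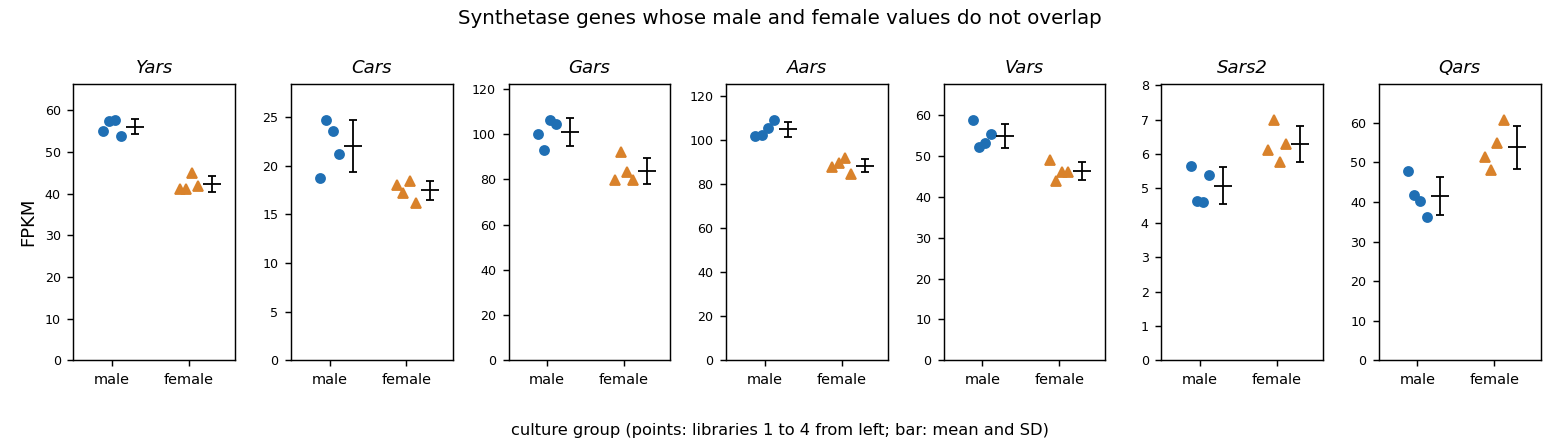
FPKM (vertical, from 0) of the 7 synthetase genes whose male and female values do not overlap, with libraries 1 to 4 of each sex as points from left to right and the mean with SD beside them. Yars, Cars, Gars, Aars and Vars are higher in male and Sars2 and Qars in female libraries, with the widest gap for Yars.

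A further 12 cytosolic genes had overlapping values and differences between -0.05 (Farsa) and 0.15 (Nars), with standard errors up to 0.107 over all cytosolic genes and limma-trend adjusted p from 0.388 to 0.994. Wars, Tars, Farsb and Hars were the closest to no difference, all within 0.00694 of 0. Among the cytosolic genes as a whole, 11 lay towards male and 7 towards female cultures, and the median difference was 0.02, beside -0.00378 over all tested genes. With quantile normalization the median of the cytosolic genes was -0.00422, of the opposite sign.

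None of the 15 tested mitochondrial genes was called (limma-trend; 1 had an unadjusted p under 0.05, Vars2, beside 21.2% of all genes). Most lay on the female side: 13 of 15 had a negative difference, beside 50.7% of all tested genes, with a median of -0.12. Under the alternatives that tested the same 15 genes, 12 to 14 did so, as did 9 of 11 with a filter at 5 FPKM and 14 of 16 with none. Their median ran from -0.19 without female 4 and -0.18 with a pseudocount of 0.1 to -0.083 with a pseudocount of 5. The female-side genes included Vars2 at 5.67, 6.99, 4.3 and 2.72 FPKM in the male libraries and 10.1, 8.04, 6.84 and 5.21 FPKM in the female libraries, whose ranges overlapped, Yars2 (3.62 ± 0.918 against 4.97 ± 1.1 FPKM (SD, n = 4), -0.37 ± 0.19), Iars2 (-0.22 ± 0.10) and Rars2 (-0.21 ± 0.15). On the male side were Nars2 (9.52 ± 1.74 against 7.64 ± 1.35 FPKM (SD, n = 4), 0.28 ± 0.15, limma-trend adjusted p = 0.333) and Lars2 (0.06 ± 0.13). Standard errors for these low genes ran from 0.086 to 0.244, against 0.0591 to 0.107 for cytosolic ones. The shallowest libraries, female 1 and female 2, were of the sex with the higher mitochondrial values, and the part of depth was not tested beyond the fit with relative depth as a covariate, where 12 of 15 stayed on the female side.

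**Figure D4:**
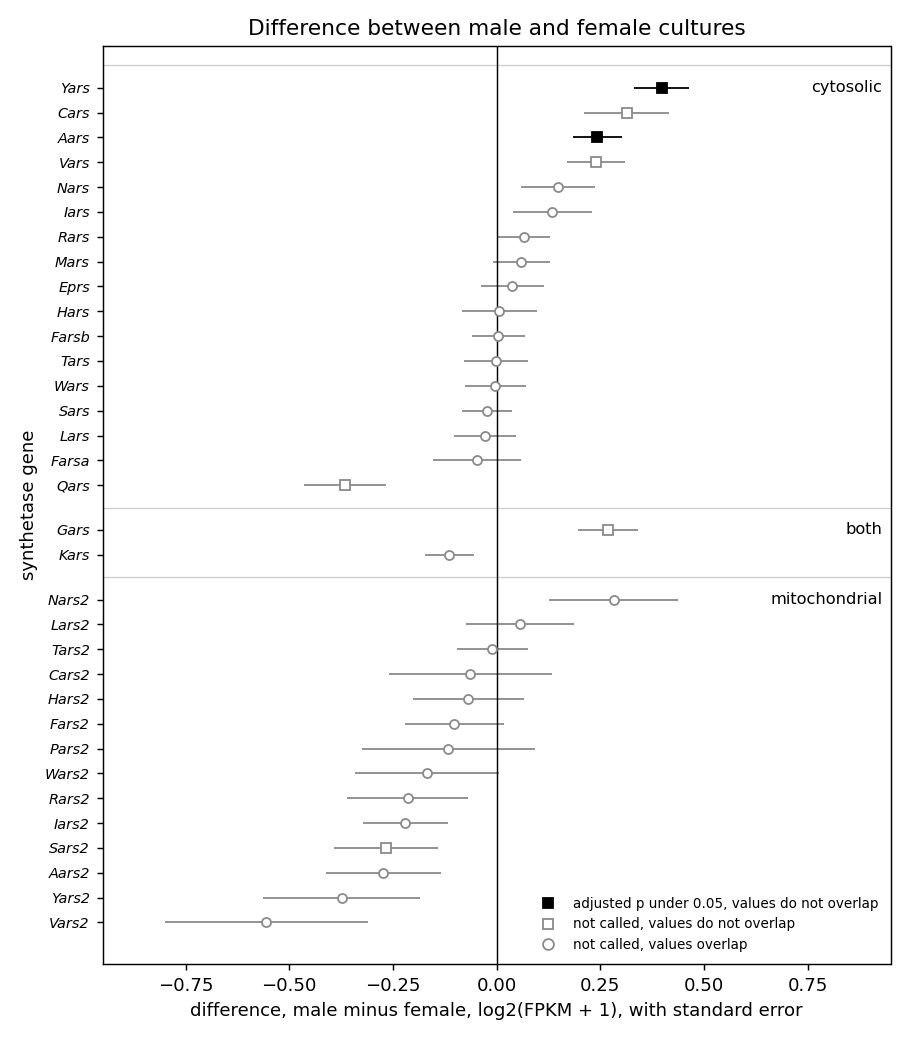
Difference between male and female cultures on the log2(FPKM + 1) scale with its standard error (horizontal) for 33 tested synthetase genes (vertical), grouped by compartment; filled squares were called, open squares have values that do not overlap, open circles overlap. Yars and Aars are the 2 called genes, and 12 of the 14 mitochondrial genes drawn lie left of 0, towards female cultures.

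The cytosolic and dual genes widely described as targets of Atf4 are Aars, Cars, Eprs, Gars, Iars, Lars, Mars, Nars, Sars, Tars, Vars, Wars and Yars. Of these 13, 2 were called (15.4%, beside 6.04% of all genes), 5 had male values all above the female ones (38.5%, beside 7.26%), and the median difference was 0.13. Of the other 7, among them Farsa, Farsb, Hars, Kars, Qars and Rars, none was called (limma-trend; 1 had an unadjusted p under 0.05), 1 had values that did not overlap, on the female side, and the median was -0.05. Split by the promoter element instead, the 7 genes with TGATGCAA had differences from -0.00164 (Tars) to 0.40 (Yars), with a median of 0.15 and 6 towards male cultures. The 10 cytosolic or dual genes with a window and no match ranged from -0.37 (Qars) to 0.24 (Vars), with a median of -0.0134 and 4 towards male cultures. Vars, without overlap between the sexes, held no match in its window, while Tars and Mars, with a match, stood within 0.06 of no difference. Splits of so few genes were not tested. The list of targets, like the Atf4 list that follows, was chosen with earlier results of these data known. Its shares beside those of all genes therefore describe the listed genes only.

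Atf4 itself was at 84.5, 68.5, 81.2 and 66.5 FPKM in the male libraries and 45.4, 42.8, 55.4 and 44.5 FPKM in the female libraries, higher in every male library (0.66 ± 0.10, limma-trend adjusted p = 0.00552). From a list of 27 Atf4 regulators and targets, of which 23 were tested, 4 had higher male levels and 1 a higher female level (21.7%, beside 6.04% of all genes), with a median difference of 0.19. The male-higher genes besides Atf4 encode enzymes of one-carbon and serine metabolism: Mthfd2 (22.7 ± 4.55 against 13.5 ± 1.76 FPKM (SD, n = 4), 0.70 ± 0.14, limma-trend adjusted p = 0.0157), Shmt2 (0.31 ± 0.07, adjusted p = 0.0312) and Psat1 (0.26 ± 0.07, adjusted p = 0.0495). Shmt2 lost its call without any of male 2, male 3, male 4, female 1, female 2 or female 4 (adjusted p up to 0.103), and Psat1 without any library other than female 3 (up to 0.148), with no filter and with either other scaling. Ddit4, an inhibitor of mTORC1 signalling, was the female-higher one (42.4 ± 5.6 against 64.9 ± 6.11 FPKM (SD, n = 4), -0.61 ± 0.10, limma-trend adjusted p = 0.00759). With relative depth as a covariate 3 genes of the list were called, Shmt2 (adjusted p = 0.0849) and Psat1 (adjusted p = 0.123) not among them. Atf4, Mthfd2 and Ddit4 kept their calls without each library in turn. Of the 23 tested genes of the list, called or not, 16 lay towards male and 7 towards female cultures.

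Genes that work beside the synthetases showed no called difference. None of 13 tested genes was called (limma-trend, 1 with an unadjusted p under 0.05), with a median of -0.0244. They include genes for complex scaffolds, editing factors, the mitochondrial route to glutaminyl-tRNA, initiator formylation and selenocysteine synthesis. The list also holds Tarsl2, a threonyl-tRNA synthetase-like gene whose symbol the rule does not match. It stood at 6.92 against 8.63 FPKM, male against female, and is not part of the synthetase counts or pairs. Smallest in p were Dtd2, which removes D-amino acids from tRNA (11.4 ± 2.6 against 14.8 ± 1.52 FPKM (SD, n = 4), adjusted p = 0.168), Aarsd1, an alanyl-tRNA editing gene (0.24 ± 0.11, adjusted p = 0.258), Gatc (-0.14 ± 0.09) and Sepsecs (-0.19 ± 0.14, and -0.090 without male 4). Dtd2 was called as female-higher without male 1 (adjusted p = 0.0282). Mitochondria lack a glutaminyl synthetase and convert glutamyl-tRNA with the amidotransferase of Gatb, Gatc and Qrsl1. Those genes stood at 6.56 against 7.73, 22.8 against 25.2 and 3.05 against 3.59 FPKM, male against female, all above their upstream partner Ears2. Of 20 tested genes of amino acid sensing by mTORC1, the kinase complex that leucyl-tRNA synthetase is known to feed into, none was called either (limma-trend; 4 with an unadjusted p under 0.05). Those were Sec13, with higher male values (0.23 ± 0.08), and Sesn3 (-0.53 ± 0.20, and -0.285 with relative depth as a covariate), Nprl2 (-0.32 ± 0.14, and -0.202 without female 4) and Sesn1, with higher female values. The lowest p belonged to Sesn1, which encodes a sestrin, a stress-induced inhibitor of the pathway, at 11.1 ± 1.12 against 14.2 ± 0.917 FPKM (SD, n = 4) (-0.34 ± 0.10, adjusted p = 0.0864). Sesn3, another sestrin gene, was called as female-higher without female 3 (adjusted p = 0.041).

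Among synthetase genes tied to inherited white matter disease were Rars, Eprs, Kars and Aars2, and the untested Ears2 and Mars2. None of the 4 tested genes was called (limma-trend; 0 had an unadjusted p under 0.05). Rars, for cytosolic arginine, was at 62.1, 60.8, 61.7 and 65.7 FPKM in the male libraries and 59.9, 61.6, 59.7 and 57.6 FPKM in the female libraries, a narrow range across both sexes. Eprs, a single protein that charges glutamate and proline, was at 40.0, 42.4, 43.5 and 45.7 FPKM in the male libraries and 43.7, 43.2, 38.4 and 41.6 FPKM in the female libraries, and the sexes interleaved. Aars2, for mitochondrial alanine, was at 4.88, 4.56, 4.0 and 3.35 FPKM in the male libraries and 5.42, 4.79, 5.54 and 5.24 FPKM in the female libraries. Its female values were higher but for male 1, which lay above female 2 (-0.27 ± 0.14, limma-trend adjusted p = 0.291), the opposite direction to Aars.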

How the data were processed

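Per the file headers, the authors deposited FPKM for every gene in each library as 1 table, the only file used. Libraries were made with a strand-specific kit, per the labels' protocols. The submitters' processing notes name Trimmomatic and FastQC with no version. For the aligner, the quantifier, the build, the annotation and the use of strand, nothing is given in the sources used here. The unit is relative to library size, and it holds no counts, so no counting interval could be given.

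Members and gene lists were chosen with earlier results of these data known. The 11263 genes averaging 1 FPKM or more across all 8 libraries were put on a log2(FPKM + 1) scale and tested with limma (version 3.58.1, R 4.3.3; trend and robust moderation), male minus female, with Benjamini-Hochberg adjustment over all of them and a threshold of 0.05. Such a fold understates the change of low genes. On simulated data with 200 of 11263 genes changed, the test of male against female called 32.6% of those given a log2 change of 0.5 and 77.4% of those given 1, with 5.34% false calls. Relative depth is the commonest ratio between libraries of values at a mean under 0.5 FPKM. Values per library are given for members that were called, did not overlap between the sexes, were among the 3 highest or lowest of a compartment or are tied to white matter disease (some items are not reported here, though counts and sums hold them); of other lists, called genes and the 4 smallest p. Vars2 was given in full after its value was seen. Alternatives were other pseudocounts, filters and scalings, a replicate block, relative depth as a covariate and leaving out libraries. One of the rows named Gatc is listed at 0 throughout and was not used.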

Additional observations from a re-analysis of the deposited data

Results flagged for a closer look

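Of 100 groups of 4 libraries checked, 5 held a library that stood apart from the other 3 by Dixon's criterion for 4 values, which chance alone gives in about 1 in 20. Among the synthetases, Hars2 was 13.9 FPKM in male 4 and 10.3 to 10.7 FPKM in the other male libraries. Kars was 136 FPKM in male 1 against 126 to 128 FPKM in the other male libraries. In the other lists, Dtd2 was 15.3 FPKM in male 1 against 9.52 to 10.5, Mthfd2 was 29.5 FPKM in male 2 against 19.6 to 20.9, and Nprl2 was 24.3 FPKM in female 4 against 17.1 to 17.8 in the remaining libraries of their sex.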

How the results depend on the processing

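With each library left out in turn, the count of called synthetases ran from 1 to 4 of 35, that of cytosolic ones from 1 to 4, that of accessory genes from 0 to 1, that of the Atf4 list from 3 to 6 and that of the mTORC1 list from 0 to 1, and mitochondrial ones stayed at 0. The difference between the sexes in the median log2 ratio ran from 0.138 to 0.245. Without male 1 and female 3 together, which deviate alike (r = 0.242 over genes), 4 synthetases were called, all 4 cytosolic (Aars, Cars, Qars and Yars), with 1 accessory and 1 mTORC1 gene. A filter at a mean of 5 FPKM, which tests fewer genes, called 4 synthetases (Aars, Gars, Qars and Yars) and gave a ratio difference of 0.0458 over fewer pairs. Relative depth as a covariate left 3 Atf4 list genes; the cause was not tested. The replicate block left 1 called synthetase, 1 among the cytosolic genes (Yars), and 3 Atf4 list genes; under it the adjusted p was 0.119 for Aars, 0.0905 for Shmt2 and 0.0886 for Psat1. Libraries of the same number did not deviate together (r = -0.0851, 0.0767, -0.0645 and 0.0357), and male 1 correlated best with female 3. Such correlations cannot tell whether libraries of the same number share a litter or preparation. Male 1 and female 3 had the highest relative depths (1 and 0.981), and the part of depth in their correlation was not tested. Yars was called under every alternative run, Aars was not called under 9 of 17, and none of the 20 single genes followed changed direction. Over all genes 680 were called, against 397 with the block, 367 with relative depth as a covariate and 299 to 803 with each library left out. Low levels and the unknown depth limit the mitochondrial genes most.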
